A study of Mus musculus with 12 samples.

Results

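The transcripts of 10 circadian clock repressor and output genes were examined in the medial prefrontal cortex of mice. They are Per1, Per2, Per3, Cry1, Cry2, Nr1d1, Nr1d2, Ciart, Dbp and Tef, and all 10 were found by name among 55678 gene names. They were chosen by their place in the clock, with Ciart and Per3 picked because the sign of their difference between strains was opposite in unstressed and stressed mice. For these 2 genes all contrasts between groups are therefore a description. The list as a whole was drawn up with results of these data known, and no stress value within a strain is tested here for any of the 10.

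There were 12 numbered libraries in 4 groups of 3. Each is taken here as 1 mouse, which the labels do not state outright. Strain B6 stands for C57BL/6JmsSlc and strain BALB/c for BALB/cCrSlc, and the labels name no transgene or deletion in either. In each strain, 1 group received chronic restraint stress (CRS), which is confinement in a polyethylene restrainer for 6 h per day on 21 days in a row, and the control group was handled but not restrained. Mice were 9 to 10 weeks old and were kept on a light and dark cycle of 12 h each. A punch of 1.5 mm supplied the tissue once behavioural testing had ended. The labels give neither the sex of the mice nor the hour at which tissue was collected, and the levels of clock genes change with the hour. Any difference in collection time between groups cannot be told apart from strain or restraint.

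The circadian clock of mammalian cells is a feedback loop of transcription. The activators ARNTL (BMAL1) and CLOCK, or NPAS2 in its place, bind E-box elements and switch on the Period genes (Per1, Per2, Per3) and the Cryptochrome genes (Cry1, Cry2), whose proteins return to the nucleus and inhibit the activators. The nuclear receptors NR1D1 and NR1D2 (REV-ERB alpha and beta) repress Arntl through elements that the ROR receptors activate. CIART (CHRONO) is a further repressor of the activators, and DBP and TEF are PAR bZIP factors that pass the rhythm on to genes with D-box elements. Forebrain regions outside the pacemaker of the hypothalamus also express these genes, and Per1 can in addition be induced by glucocorticoids and by neuronal activity.

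Promoter windows of 300 bases, from 250 before to 50 after the annotated start, were matched for 9 of the 10 genes in RefSeq (GRCm38.p6). Per1 and Tef have 2 windows each, which makes 11 windows. Both strands were searched for the E-box CACGTG, the E-prime box CACGTT, the D-box TTATGTAA or TTACGTAA, the ROR element core AGGTCA and the cAMP response element TGACGTCA. The E-box and E-prime box share their first letters and cannot match at the same place. Among all 32851 windows of this length, 7.15% hold an E-box, 4.68% an E-prime box, 1.06% a D-box, 16.3% the ROR core and 1.79% the cAMP response element. Among the 11 windows of the clock genes, 5 hold an E-box, 3 an E-prime box, 1 a D-box and 2 the ROR core. None of the 11 holds the cAMP response element as spelled. A match describes the letters only and is not a measured binding site.

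The 4 windows printed include those of the 2 genes chosen for opposite strain differences (Ciart, Per3) and of Cry1, which was lower in BALB/c. The last is that of Nr1d1, which had the smallest unadjusted p for restraint among the 8 genes tested for it. Dbp was also lower in BALB/c, but its window holds no match and is not printed. Each is written 5′ to 3′ on the gene's own strand, with matches in capitals. Ciart, on the minus strand at chr3:95882179-95882478, holds 3 E-boxes, at bases -116, -58 and -44 from the start. Per3, on the minus strand at chr4:151044616-151044915, holds 2 D-boxes, at -205 and -158. Cry1, on the minus strand at chr10:85185005-85185304, holds an E-prime box on the opposite strand at -79 and an E-box at -60. Nr1d1, on the minus strand at chr11:98775328-98775627, holds an E-prime box on the opposite strand at -28.
Ciart: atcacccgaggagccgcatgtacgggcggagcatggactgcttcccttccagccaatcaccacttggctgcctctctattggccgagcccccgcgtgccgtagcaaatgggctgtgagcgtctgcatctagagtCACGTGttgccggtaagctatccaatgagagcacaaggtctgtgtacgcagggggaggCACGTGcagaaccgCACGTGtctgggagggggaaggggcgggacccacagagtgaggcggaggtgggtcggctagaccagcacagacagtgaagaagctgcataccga
Per3: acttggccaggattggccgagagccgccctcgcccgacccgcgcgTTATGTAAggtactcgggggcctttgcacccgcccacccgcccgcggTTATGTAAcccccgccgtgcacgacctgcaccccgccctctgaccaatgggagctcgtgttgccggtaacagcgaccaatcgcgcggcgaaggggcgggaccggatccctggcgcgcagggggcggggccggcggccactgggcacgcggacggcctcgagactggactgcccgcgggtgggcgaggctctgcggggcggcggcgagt
Cry1: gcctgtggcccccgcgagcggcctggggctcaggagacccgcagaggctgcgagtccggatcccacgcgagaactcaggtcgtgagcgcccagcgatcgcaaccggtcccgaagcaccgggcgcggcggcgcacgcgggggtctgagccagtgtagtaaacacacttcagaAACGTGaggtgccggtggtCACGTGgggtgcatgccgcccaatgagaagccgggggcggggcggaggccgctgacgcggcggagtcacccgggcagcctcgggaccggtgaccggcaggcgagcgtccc
Nr1d1: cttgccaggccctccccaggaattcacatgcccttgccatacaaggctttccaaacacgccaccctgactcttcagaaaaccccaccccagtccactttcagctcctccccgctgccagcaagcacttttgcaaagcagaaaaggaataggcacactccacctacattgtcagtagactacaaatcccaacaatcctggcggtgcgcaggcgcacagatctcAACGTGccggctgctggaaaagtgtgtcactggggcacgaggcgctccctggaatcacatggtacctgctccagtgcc

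**Figure D1:**
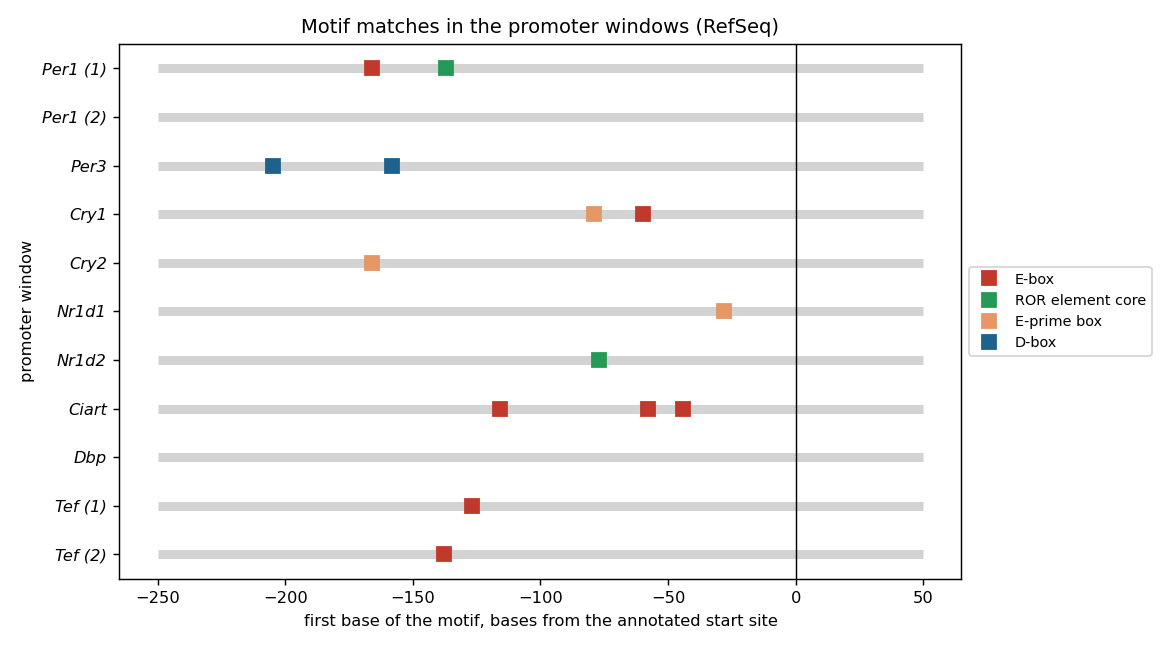
Matches of the searched motifs in the 11 promoter windows of 9 genes; the horizontal axis is the distance in bases from the annotated start site, grey bars are the windows and squares the first base of each match. Ciart carries 3 E-boxes and Per3 carries 2 D-boxes, and no match lies in the Dbp window or in the second Per1 window.

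Expression was given as TPM (the length-corrected share of a transcript in its library), so levels can be compared between genes. Every library sums to 1000000 TPM, the number of reads behind a value is unknown, and the only measure of precision is how much the 3 mice of a group differ. Over the 12 libraries Tef had the highest mean level, 123 ± 14.3 TPM (SD, n = 12), which lay above every other member in every library. Cry2 (55.8 ± 5.29 TPM), Dbp (52.5 ± 12.5 TPM) and Nr1d1 (46.7 ± 8.43 TPM) followed, and the ranges of mean ± SD of these 3 neighbours overlapped. Nr1d2 (34.1 ± 3.83 TPM) and Per1 (29.3 ± 8.56 TPM) came next and also overlapped. The lowest levels were those of Ciart (12.4 ± 2.71 TPM), Per3 (10.2 ± 1.81 TPM), Cry1 (9.81 ± 2.62 TPM) and Per2 (8.80 ± 1.88 TPM, SD, n = 12 for each), whose ranges of mean ± SD overlapped. These SDs also hold the differences between groups. Apart from Tef, the genes were not compared library by library. All 10 genes passed the filter on low values, at least 1 TPM in at least 3 libraries, and did so in all 4 groups.

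A few libraries stand apart. In BALB/c CRS replicate 12, the 18S ribosomal RNA gene took 3.97% of TPM, against 0.0307% to 0.169% in the other 11 libraries, and this library held the lowest value of Per1, Per2, Cry1, Nr1d2 and Tef among all 12. Markers of neurons of the striatum, a region beneath the frontal cortex, were detected in every group, with none of them at 0. The summed TPM of 10 such genes ran from 238 to 3008 in B6 controls and from 1053 to 2462 in B6 CRS mice. It ran from 141 to 426 in BALB/c controls and from 159 to 209 in BALB/c CRS mice. The markers of cortical excitatory neurons were detected in all groups, and 8 of 8 genes passed the filter. Their sums ran from 571 to 1386 TPM in B6 controls and from 524 to 1017 TPM in B6 CRS mice. In BALB/c they ran from 1032 to 1171 TPM in controls and from 1030 to 1200 TPM in CRS mice. For the averaged strain difference all 8 were higher in BALB/c, 3 of them called (limma), where 4.05% of all genes were called higher. In bulk tissue, fewer cells of a type and less RNA per cell cannot be told apart.

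**Figure D2:**
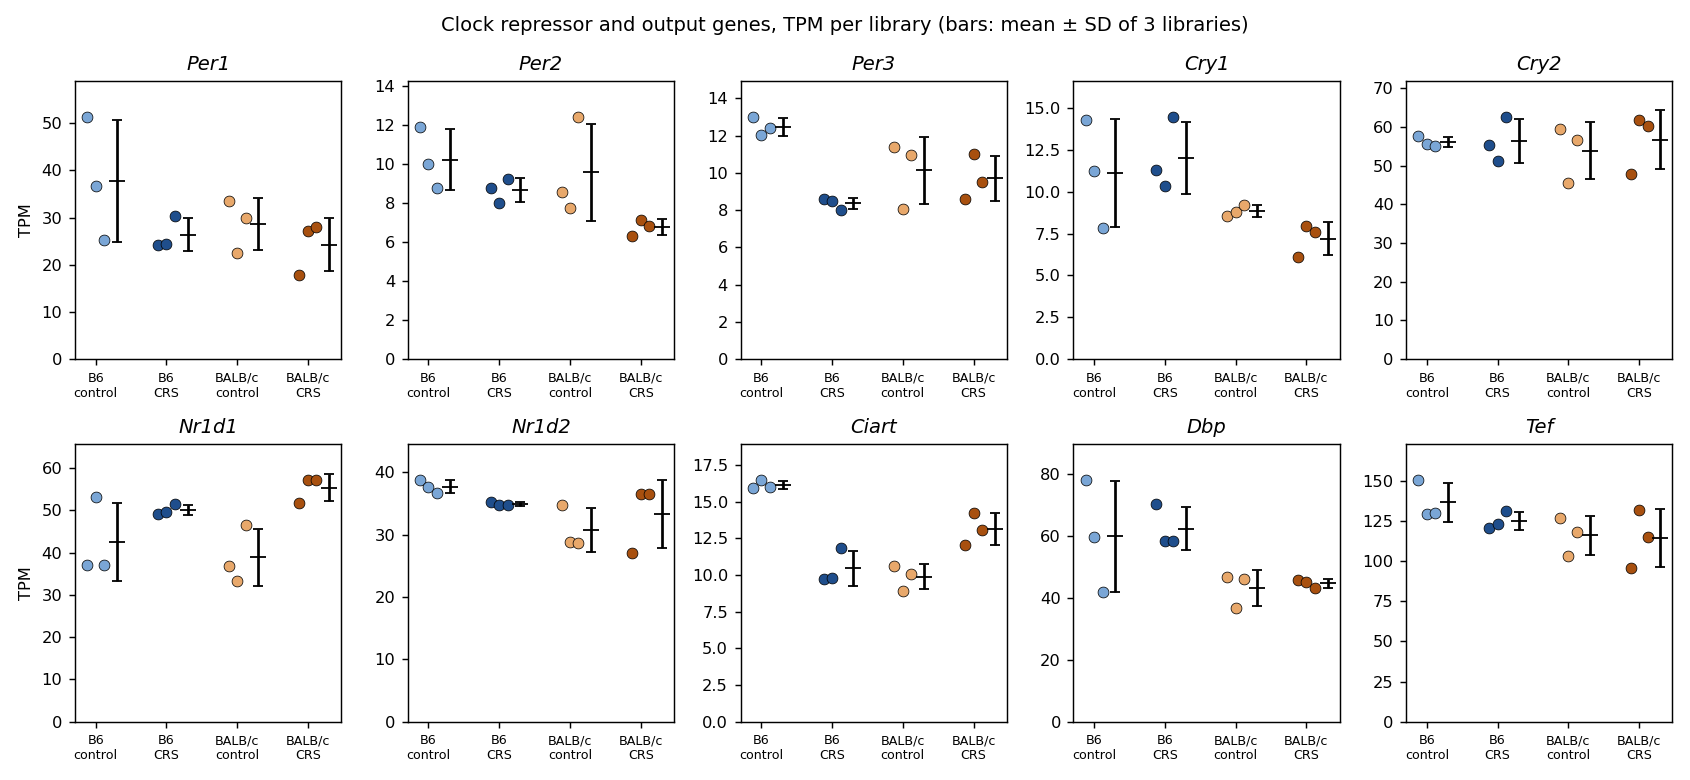
TPM of the 10 genes in each of the 12 libraries; each dot is a mouse and bars give the mean ± SD of the 3 libraries of a group, with the vertical axes starting at 0. Ciart and Per3 are low in the 3 stressed B6 mice relative to B6 controls, and Ciart is higher in the 3 stressed BALB/c mice than in the 3 BALB/c controls.

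Ciart encodes a repressor of the ARNTL and CLOCK pair. In B6 controls 2, 3 and 9 it measured 15.9, 16.5 and 16.0 TPM, and in B6 CRS mice 12, 13 and 14 it measured 9.70, 9.79 and 11.8 TPM. In BALB/c the order was turned, with 10.6, 8.93 and 10.1 TPM in controls 5, 9 and 10 and 12.1, 14.2 and 13.0 TPM in CRS mice 12, 13 and 15. All stressed B6 mice thus lay below all B6 controls, and all stressed BALB/c mice lay above all BALB/c controls.

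The Ciart difference between CRS and control on the log2(TPM + 1) scale was -0.59 (SE 0.12) in B6 and 0.38 (SE 0.12) in BALB/c. The difference between those effects was 0.96 (SE 0.17). Leaving out any 1 of the 12 libraries gave values from 0.90 to 1.05, and leaving out B6 control 2 and BALB/c CRS 12 together gave 1.02. With the striatal marker score as a covariate it was 0.90. No test is given, since Ciart was chosen for this pattern. Over all 16423 genes tested, 44 genes (0.268%) showed non-overlapping groups in opposite directions in the strains.

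The deposited table holds 6 rows for Ciart, apparently 1 per transcript. The most abundant of them made up 59.2% to 85.3% of the gene in a library. That row alone measured 13.6, 13.0 and 9.47 TPM in B6 controls and 8.21, 5.92 and 8.96 TPM in stressed B6 mice. Among BALB/c mice it was at 7.83, 7.24 and 6.41 TPM in controls and 9.26, 12.1 and 8.97 TPM after restraint. Stressed and control groups did not overlap in this row either, with 9.47 and 8.96 TPM as the closest values in B6 and 7.83 and 8.97 TPM in BALB/c. Between the strains the closest values were 9.47 TPM in B6 and 7.83 TPM in BALB/c among controls. After restraint they nearly tied, at 8.960 TPM in B6 and 8.967 TPM in BALB/c.

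Per3 encodes the third Period protein. It measured 13.0, 12.0 and 12.4 TPM in the B6 control mice, against 8.57, 8.51 and 8.02 TPM in stressed B6 mice, so these groups did not overlap. Within BALB/c it was at 11.4, 8.08 and 10.9 TPM in controls and at 8.61, 11.0 and 9.50 TPM after restraint, and these groups overlapped throughout. The log2 difference between CRS and control was -0.52 (SE 0.14) in B6 and -0.05 (SE 0.14) in BALB/c, and the difference between those effects was 0.47 (SE 0.20).

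For Per3 the strain difference had opposite signs in control and CRS mice, while the restraint difference was below 0 in both strains. Both describe the same 4 group means, and neither was tested. BALB/c mice lay below B6 mice among controls and above them after restraint, in the latter case with 8.61 TPM as the lowest BALB/c value and 8.57 TPM as the highest B6 value. Counted over the 10 genes, BALB/c lay below B6 without overlap for 4 genes in controls (Ciart, Per3, Nr1d2, Tef), where 22.9% of all genes did not overlap, 18.7% lower and 4.16% higher, and only Ciart kept this under median-of-ratios scaling. Under restraint 3 genes were lower without overlap (Cry1, Per2, Dbp) and 3 higher (Ciart, Per3, Nr1d1). There 29.3% of all genes did not overlap, 20% lower and 9.29% higher. Ciart and Per3 were picked on these strain differences, so nothing is read from either count. Without them, Nr1d2 and Tef remain in controls, and Cry1, Per2, Dbp and Nr1d1 under restraint. Over all genes, 24 (0.146%) showed a turn of the strain difference without overlap, Ciart and Per3 among them. With median-of-ratios scaling, which divides each library by a size factor taken over all genes, the control groups overlapped for Per3. The Ciart groups remained apart in all 4 comparisons under that scaling. The turn was also absent from the most abundant of the 5 Per3 rows, which made up 44.3% to 77.6% of the gene. That row measured 8.62, 8.19 and 6.17 TPM in B6 controls against 8.03, 5.93 and 8.34 TPM in BALB/c controls. After restraint it measured 6.05, 5.48 and 5.19 TPM in B6 against 3.81, 7.05 and 7.37 TPM in BALB/c, so the strains overlapped both times. Leaving out B6 control 2 and BALB/c CRS 12 together gave a Per3 effect of 0.02 in BALB/c and a difference between the effects of 0.52.

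**Figure D3:**
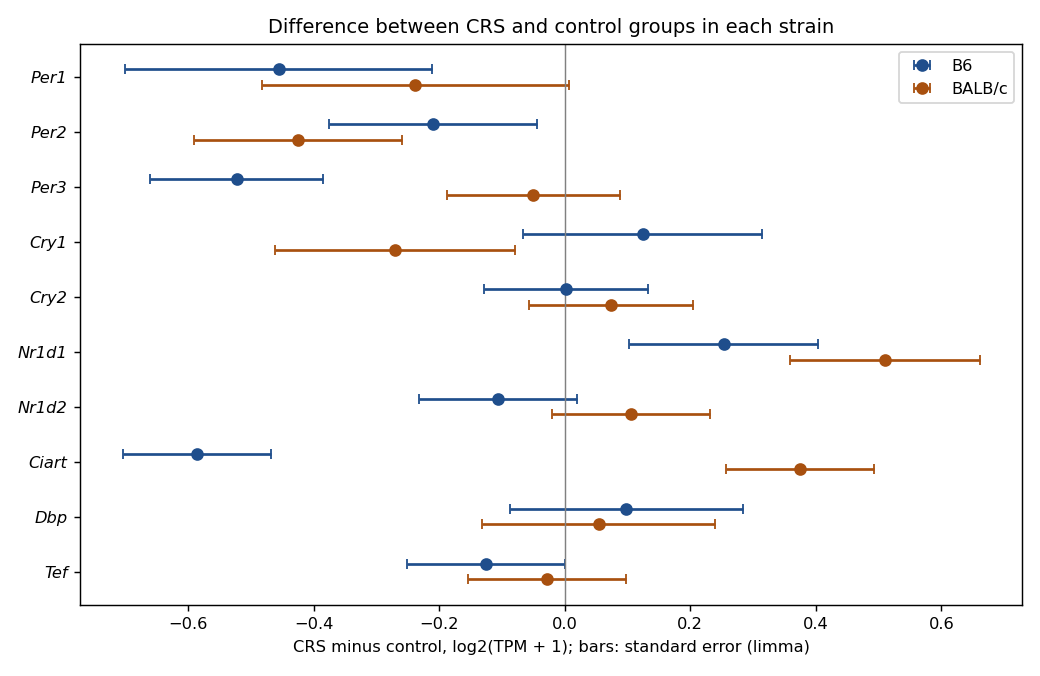
Difference between the CRS and control groups in each strain for the 10 genes on the log2(TPM + 1) scale; dots are fitted differences and bars their standard errors (limma). Ciart lies at -0.59 in B6 and 0.38 in BALB/c, Per3 at -0.52 and -0.05, and Nr1d1 above 0 in both strains.

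Per1 and Per2, the Period genes that are needed for a normal rhythm, had lower group means after restraint in both strains. Per1 measured 51.3, 36.8 and 25.3 TPM in the B6 control mice, against 24.2, 24.5 and 30.4 TPM after restraint. In BALB/c it was at 33.5, 22.6 and 29.8 TPM in controls and at 17.8, 27.1 and 27.9 TPM after restraint, with overlap in both strains. Its log2 difference was -0.46 (SE 0.24) in B6 and -0.24 (SE 0.24) in BALB/c. Both values rest in part on single libraries, since they were -0.21 without B6 control 2 and -0.04 without BALB/c CRS 12.

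Per2 measured 11.9, 10.0 and 8.76 TPM in the B6 control mice, against 8.74, 7.99 and 9.22 TPM after restraint, which overlapped. Among BALB/c mice it was at 8.56, 7.76 and 12.4 TPM in controls and at 6.30, 7.11 and 6.81 TPM after restraint, so the stressed mice all lay lower. The log2 difference was -0.21 (SE 0.17) in B6 and -0.425 (SE 0.17) in BALB/c. They were -0.105 without B6 control 2 and -0.243 without BALB/c control 10.

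Cry1 and Cry2 encode the cryptochromes, repressors of the activators. Cry1 measured 14.3, 11.3 and 7.86 TPM in the B6 control mice, against 11.3, 10.4 and 14.5 TPM in stressed B6 mice. Within BALB/c it was at 8.55, 8.76 and 9.22 TPM in controls and at 6.10, 7.93 and 7.58 TPM after restraint, where the groups did not overlap. The log2 difference was 0.12 (SE 0.19) in B6 and -0.27 (SE 0.19) in BALB/c. Cry2 ranged from 51.3 to 62.5 TPM over the 6 B6 libraries and from 45.5 to 61.8 TPM over the 6 BALB/c libraries. Its log2 differences were 0.00 (SE 0.13) in B6 and 0.07 (SE 0.13) in BALB/c, and its groups overlapped in both.

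Nr1d1 and Nr1d2 encode the REV-ERB receptors, which bind haem and repress Arntl. Nr1d1 measured 37.2, 53.2 and 37.2 TPM in the B6 control mice, against 49.2, 49.7 and 51.5 TPM after restraint, with 1 control above all stressed mice. In BALB/c it was at 36.9, 33.4 and 46.5 TPM in controls and at 51.8, 57.2 and 57.2 TPM after restraint, where all stressed mice lay higher. The log2 difference was 0.25 (SE 0.15) in B6 and 0.51 (SE 0.15) in BALB/c, the same sign in both strains.

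Nr1d2 measured 38.7, 37.6 and 36.6 TPM in the B6 control mice, against 35.2, 34.8 and 34.7 TPM after restraint, which did not overlap but differed by a log2 value of only -0.11 (SE 0.13). With median-of-ratios scaling these groups overlapped. Among BALB/c mice it was at 34.7, 28.9 and 28.6 TPM in controls and at 27.0, 36.4 and 36.5 TPM after restraint, a log2 difference of 0.11 (SE 0.13) with overlap.

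Dbp and Tef are the output factors that bind D-boxes. Dbp measured 78.0, 59.5 and 41.9 TPM in the B6 control mice, against 70.3, 58.4 and 58.4 TPM after restraint. Within BALB/c it was at 46.8, 36.6 and 46.2 TPM in controls and at 45.8, 45.1 and 43.0 TPM after restraint. The groups overlapped in both strains, with log2 differences of 0.10 (SE 0.19) in B6 and 0.05 (SE 0.19) in BALB/c.

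Tef measured 150.6, 129 and 130.02 TPM in the B6 control mice, against 120.5, 123 and 131 TPM in stressed B6 mice, with overlap. In BALB/c it ran from 103 to 127 TPM in controls and from 95.8 to 132 TPM after restraint. The log2 differences were -0.12 (SE 0.13) and -0.03 (SE 0.13).

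Counted over the 10 genes, the stressed and control groups did not overlap for 3 genes in B6, all lower after restraint (Ciart, Per3, Nr1d2). Over all genes tested, 8.33% did not overlap in B6, 3.7% lower and 4.63% higher. In BALB/c they did not overlap for 4 genes, Ciart and Nr1d1 higher and Per2 and Cry1 lower, where 7.39% of all genes did not overlap, 5.36% higher and 2.02% lower. The median log2 difference of the 10 genes was -0.115 in B6 and 0.013 in BALB/c, against 0 and 0.045 for all genes. Since Ciart and Per3 were picked on these groups and the list was drawn up with results known, nothing is read from these counts. Across all genes, limma called 0% of genes in B6, 0.00609% (1 gene) in BALB/c and 0% for the difference between the strains' effects at an adjusted p-value of 0.05, with 4.82%, 3.03% and 2.7% at an unadjusted p under 0.05.

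The restraint effect averaged over both strains was tested for the 8 genes other than Ciart and Per3. This average is the mean of the within-strain effects, which the choice of the list had used. Its p-values are therefore a description and not independent support. None of the 8 passed (limma, Benjamini-Hochberg over 16423 genes), against 0.00609% of all genes, and 2 of them had an unadjusted p under 0.05. Nr1d1 was higher by 0.38 (SE 0.11, unadjusted p 0.00381, adjusted p 0.946, limma), with 5.17% of all genes at an unadjusted p under 0.05. Per2 was lower by a log2 value of -0.32 (SE 0.12, unadjusted p 0.0185, adjusted p 0.946, limma). The other 6 genes had averaged effects between -0.35 (Per1) and 0.08 (Dbp). The 95% interval of the Dbp effect was -0.21 to 0.36 and that of Nr1d2 was -0.19 to 0.19, so changes within these bounds remain possible.

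The strain difference averaged over control and CRS mice was tested for the same 8 genes. For Ciart and Per3, picked because their strain differences had opposite signs, the average is drawn toward 0 by that choice and is a description. Cry1 and Dbp were lower in BALB/c and the other 6 genes did not pass. That is 2 of 8 genes called, where 18.4% of all genes were called in either direction with 14.3% lower and 4.05% higher in BALB/c, and where 32% had an unadjusted p under 0.05 (2 of the 8 did), so these counts do not set the genes apart from the rest. Of all called genes, 78% were lower in BALB/c, a share that dropped to 53.5% with median-of-ratios scaling, which moved the median of all genes from -0.08 to 0.01. The signs were negative for 7 of the 8 clock genes and 63.8% of all genes, with a median of -0.20 against -0.08 for all genes. Under median-of-ratios scaling Cry2 changed sign, as did the described value of Per3.

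Cry1 was lower in BALB/c by a log2 value of -0.47 (SE 0.14, adjusted p 0.0329, limma). All 3 stressed BALB/c mice, at 6.10 to 7.93 TPM, lay below all 3 stressed B6 mice, at 10.4 to 14.5 TPM. Among controls the strains overlapped, since B6 control 9 was at 7.86 TPM. Dbp was lower by a log2 value of -0.45 (SE 0.13, adjusted p 0.0352, limma). Stressed BALB/c mice, at 43.0 to 45.8 TPM, lay below stressed B6 mice, at 58.4 to 70.3 TPM, and the control groups overlapped through B6 control 9 at 41.9 TPM.

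Both calls depended on the processing and on single libraries. With median-of-ratios scaling the differences were -0.38 for Cry1 (adjusted p 0.0637, limma) and -0.35 for Dbp (adjusted p 0.112, limma). The calls were kept in 4 of 12 fits without 1 library for Cry1 and in 3 of 12 for Dbp, and the largest adjusted p over the 12 fits was 0.076 for Cry1 and 0.0864 for Dbp (limma). The differences over these fits ran from -0.57 to -0.37 for Cry1 and from -0.56 to -0.34 for Dbp.

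Striatal and myelin markers also differed between libraries. In B6 controls 2, 3 and 9 the summed striatal markers were at 3008, 502 and 238 TPM and the summed myelin markers at 9850, 5974 and 2568 TPM. Dbp, Cry1, Per1 and Per2 each had the same order over these 3 mice. The other groups did not share this order throughout. In B6 CRS mice 12, 13 and 14 the striatal sums were 2462, 1862 and 1053 TPM. There Dbp was at 70.3, 58.4 and 58.4 TPM, but Per1 at 24.2, 24.5 and 30.4 TPM. BALB/c control 9 had the highest striatal and myelin sums of its group, 426 and 3129 TPM, but the lowest Dbp, 36.6 TPM. All 10 striatal and all 8 myelin genes were lower in BALB/c for the averaged strain difference (limma), by medians of -2.26 and -2.25 on the log2 scale. With the striatal score as a covariate the Dbp difference was -0.07 (adjusted p 0.869, limma) and the Cry1 difference -0.15 (adjusted p 0.721, limma). With the myelin score they were -0.34 and -0.30 (adjusted p 0.743 and 0.798, limma). These scores differ between the strains, so their part cannot be told apart from that of strain.

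**Figure D4:**
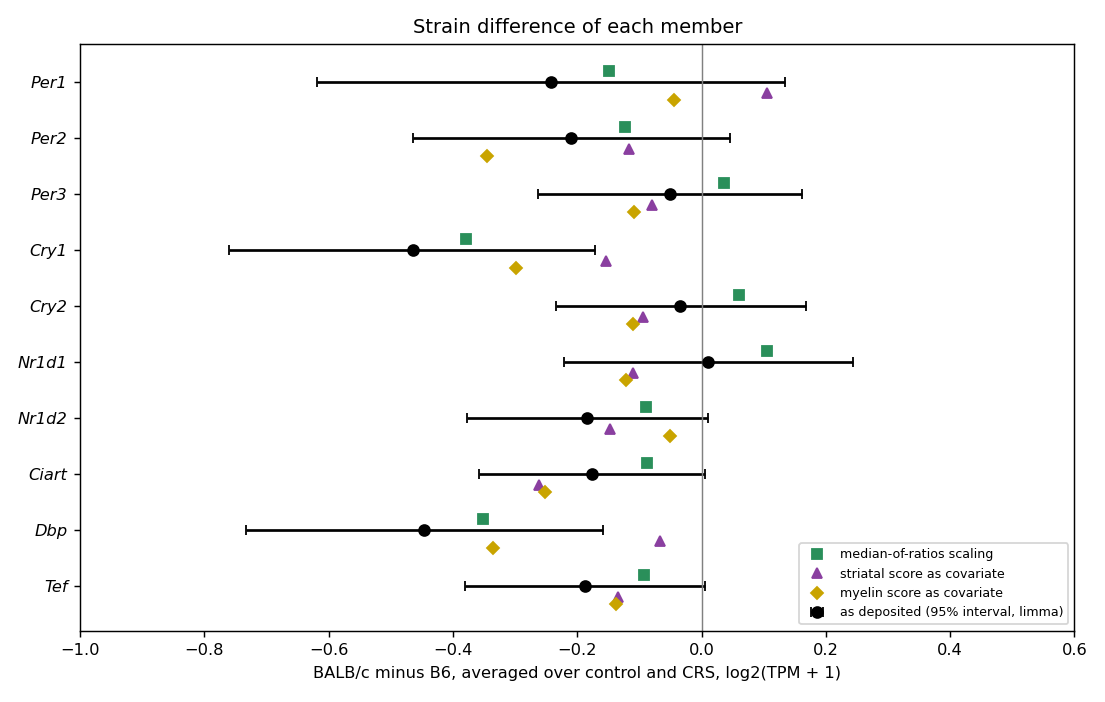
Strain difference, BALB/c minus B6, averaged over control and CRS mice on the log2(TPM + 1) scale; black dots and bars give the value and its 95% interval (limma), and coloured marks the value under another scaling or with a marker score as a covariate. The values of Ciart and Per3 are a description, the intervals of Cry1 and Dbp exclude 0, and with the striatal score Dbp lies at -0.07.

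The remaining genes showed smaller strain differences. Per1 was at -0.24 (95% interval -0.62 to 0.14), and Per2 at -0.21 (-0.46 to 0.04). Tef and Nr1d2 lay at -0.19 and -0.18, with intervals that just included 0, and Cry2 and Nr1d1 at -0.03 and 0.01. The described averages of Ciart and Per3 were -0.18 and -0.05. Tested in controls alone, 0 of 8 genes passed (limma; 4.73% of all genes did, 1.36% higher and 3.37% lower), and 2 of 8, Nr1d2 and Dbp, had an unadjusted p under 0.05, as 18.7% of all genes had. Under restraint alone, 0 of 8 passed (limma; 7.7% of all genes did, 2.37% higher and 5.33% lower), and 2 of 8, Cry1 and Dbp, had an unadjusted p under 0.05, as 23.8% of all genes had. Cry1 under restraint was at -0.66 (SE 0.19, adjusted p 0.0553, limma), next to the threshold.

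The wider clock was read from a list of 26 genes, namely 7 activators, 9 further output genes and 10 genes of clock protein turnover. For the averaged strain difference, 0 were higher and 5 were lower in BALB/c (limma). They include Nampt, which encodes an enzyme of NAD synthesis, and Fbxl21, Btrc and Nono. Fbxl21 and Btrc encode F-box proteins that mark clock proteins for breakdown, and Nono encodes an RNA-binding partner of the Period proteins. Nampt went from 22.5 ± 2.64 TPM in B6 controls and 21.1 ± 1.28 TPM in B6 CRS mice to 17.0 ± 1.40 TPM in the controls and 16.6 ± 3.52 TPM in the CRS mice of BALB/c (SD, 3 libraries in each group). Its log2 difference was -0.365 (SE 0.10, adjusted p 0.0297, limma), and those of Fbxl21, Btrc and Nono were -0.66, -0.37 and -0.25. The median of the 26 was -0.08, equal to that of all genes, and 5 of 26 stands beside 18.4% of all genes called. With median-of-ratios scaling 2 of the 5, Btrc and Nono, were still called and 1 gene was higher, and with the myelin score as a covariate 0 of the 26 were called. Fits without 1 library called between 0 and 5 of them lower.

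Among the activators, Arntl had a mean of 19.1 ± 3.34 TPM in B6 controls and 20.0 ± 0.975 TPM after restraint, and BALB/c had 22.9 ± 3.40 TPM in controls and 23.2 ± 0.784 TPM in CRS mice (SD, 3 libraries in each group). Its strain difference was 0.23 (SE 0.10, adjusted p 0.127, limma) and its averaged restraint effect 0.05 (SE 0.10, adjusted p 0.984, limma). Clock and Npas2 had averaged restraint effects of -0.12 (SE 0.10) and 0.18 (SE 0.10), neither of which passed. For that effect 0 of the 26 genes passed (limma), and 1 had an unadjusted p under 0.05. The difference between the strains in the restraint effect gave 0 of 26 (limma), with 0 at an unadjusted p under 0.05.

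Genes known to respond to stress hormones or to neuronal activity were listed beside the clock because Per1 is such a gene. Of 14 immediate early genes, 14 had a lower mean after restraint in B6 and 11 in BALB/c, with medians of -0.96 and -0.23, and 0 passed in either strain (limma), with 13 and 1 at an unadjusted p under 0.05. Among all genes 49.7% were lower in B6 and 37.4% in BALB/c, and 4.82% and 3.03% had an unadjusted p under 0.05. Of 10 glucocorticoid target genes, 5 had a lower mean in B6 and 4 in BALB/c, with medians of -0.02 and 0.07, and 0 passed (limma), with 3 and 2 at an unadjusted p under 0.05. Per1, at -0.46 and -0.24, was below 0 in both strains, as were all 14 immediate early genes in B6 but only 11 of 14 in BALB/c. A link between Per1 and these genes was not tested.

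Mice of the same group also differed from each other, and those deviations from the group mean were not used to choose the genes. Over the 12 libraries, all 45 pairs of the 10 genes had a positive correlation of deviations, with a median r of 0.53. Among all 134849253 pairs of tested genes 63.5% were positive, with a median of 0.16. Under median-of-ratios scaling 41 of 45 pairs were positive with a median of 0.49, against 50% of all pairs. The points of these correlations share library composition, including the striatal and myelin content given above, and they are a description.

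The highest values were those of Cry2 with Ciart (r 0.88), Per1 with Cry1 (0.86) and Cry2 with Tef (0.86). The lowest were those of Per2 with Nr1d2 (0.06), Dbp with Ciart (0.07) and Nr1d1 with Nr1d2 (0.08). Against Dbp, the genes with the largest r were Per1 (r 0.70, permutation p 0.115 and adjusted 0.372 by the exact test, with a rho of 0.48 at exact p 0.221 and adjusted 0.627) and Cry1 (r 0.64, permutation p 0.218 and adjusted 0.372 by the exact test, with a rho of 0.27 at exact p 0.515 and adjusted 0.736). Permutations were made within groups, two-sided, over all pairings, with 10 relations in the family. Without the 2 libraries farthest from the median of Dbp, B6 controls 2 and 9, r fell to 0.22 for Per1 and to -0.16 for Cry1, so both relations rest on those mice. Not all relations fell as far, since r went from 0.63 to 0.45 for Per2 and rose from 0.41 to 0.66 for Per3. Against Arntl, the activator, r was -0.40 (permutation p 0.512 and adjusted 0.639 by the exact test, with a rho of -0.15 at exact p 0.733 and adjusted 0.814) and 0.59 without those libraries. None of the 10 relations passed.

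**Figure D5:**
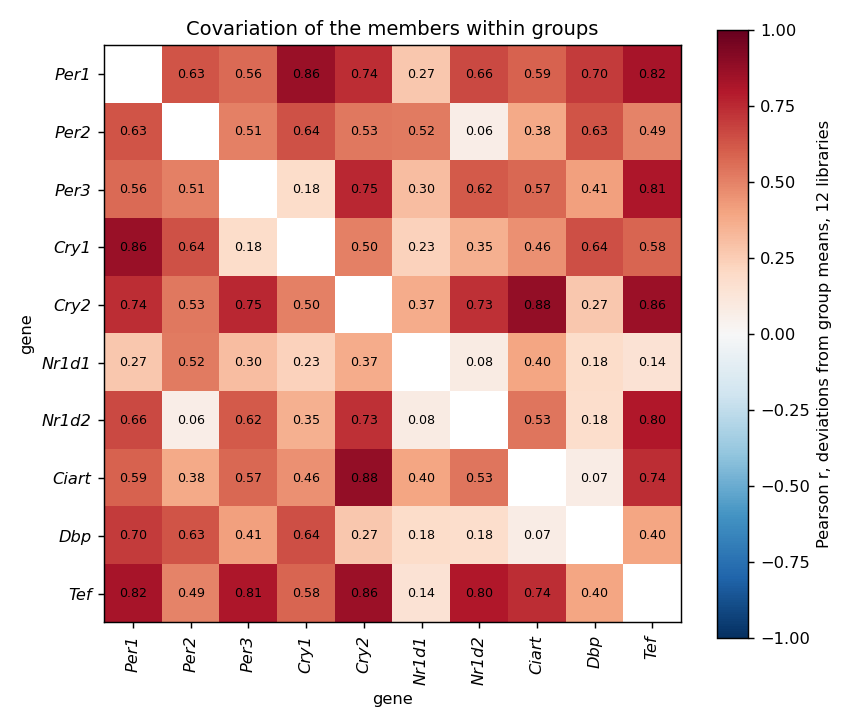
Pearson correlation between each pair of the 10 genes, computed over 12 libraries from deviations of log2(TPM + 1) from the group mean; each cell gives r and the colour its sign and size. All 45 pairs are above 0, from 0.06 for Per2 with Nr1d2 to 0.88 for Cry2 with Ciart.

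The genes whose deviations were most like those of Ciart were Dnttip1 (r 0.97), Nom1 (0.96) and Pak6 (0.96), out of 10479 genes with a mean of at least 5 TPM. For Per3 they were Rabl6 (0.97), Anapc1 (0.96) and Zfyve28 (0.93), and for Dbp Slc16a11, Lrp10 and Rcn1 (0.95 each). None of these is a member of the clock lists. The values are over 12 libraries and are the largest of many, so they describe these libraries only.

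Overlaps with other genes bear on some of the levels. In GENCODE M21, 18% of the exonic bases of Dbp overlap exons of Sphk2 on the other strand, and 8.55% of those of Nr1d1 overlap Thra. Cry2 and Tef overlap antisense transcripts in 4.67% and 2.45% of their exonic bases, and the remaining 6 genes have no exonic overlap with another gene. The library kit marks strand, but whether strand was used in quantification is not given in the sources used here. Ciart lies at chr3:95878503-95882251, Per3 at chr4:151003652-151044665, Cry1 at chr10:85131700-85185064 and Dbp at chr7:45705088-45710203 (GRCm38).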

How the data were processed

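Prefrontal RNA of 12 mice was sequenced as paired 150 bp reads from stranded poly(A) libraries, about 6 Gb each, per the labels' protocols. The authors deposited TPM values in 1 table with a column per library, and each column name matched 1 sample title. It has 147902 rows, apparently 1 per transcript, labelled with a gene name only. The unit was read from the column sums and the fractional values. The submitters' processing notes name cutadapt 2.9, Salmon and the build GRCm38; the annotation, settings and the use of strand are not given in the sources used here. Read depth is unknown.

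Rows were summed per gene name. The 16423 genes that reached 1 TPM in 3 or more libraries were fitted on log2(TPM + 1) in limma 3.58.1 under R 4.3.3, with 4 group means, 8 residual degrees of freedom and an intensity trend, and called at a Benjamini-Hochberg adjusted p under 0.05. The log2(TPM + 1) scale understates changes of low genes. The averaged strain difference was planned as a test for all 10 genes and is read as one for 8, without Ciart and Per3. The script was tested on simulated data. Contrasts that share groups share those libraries. The members and gene lists were chosen with earlier results of these data known. Named genes are the members, listed clock genes that were called (1 of them is not reported here), and the 3 genes most like Ciart, Per3 and Dbp by r of deviations from group means, with a mean of at least 5 TPM and without Gm, Rik or -ps names. Marker scores are means of log2(TPM + 1). The labels do not say outright that each library is a separate animal, so p-values measure the spread between these libraries, which may be technical. Some sample numbers recur in both strains and cannot be the same mice.

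Alternatives were pseudocounts of 0.1 and 0.5, other filters on low values, median-of-ratios scaling, rescaling without mitochondrial transcripts, Bc1 and 18S ribosomal RNA, no trend, fits of only the groups compared, a replicate block, marker scores as covariates, and leaving out each library. Leaving out B6 control 2 and BALB/c CRS 12 together was added after seeing the data.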

Additional observations from a re-analysis of the deposited data

Results flagged for a closer look

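Ciart was marked because every stressed B6 mouse lay below the B6 controls and every stressed BALB/c mouse above the BALB/c controls, and because the strain difference likewise turned between control and CRS mice. The difference between the effects was 0.961 on the log2(TPM + 1) scale. The difference was not tested, since the gene was chosen for it.

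Per3 was marked because BALB/c mice lay below B6 mice among controls and above them after restraint, a change of the strain difference by 0.473. It was not tested either. The gap under restraint is between 8.57 and 8.61 TPM, and the control groups overlap under median-of-ratios scaling. In the most abundant Per3 row the strains overlap among controls and after restraint. Among the 36 members and further clock genes examined, no other gene met these conditions.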

How the results depend on the processing

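The number of genes called for the averaged strain difference, 2, became 0 without the filter on low values, under median-of-ratios scaling, after rescaling without mitochondrial transcripts, Bc1 and 18S RNA, with the striatal or the myelin score as a covariate, and without B6 control 2 and BALB/c CRS 12 together. It ran from 0 to 2 when each library was left out. In controls the count ran from 0 to 1 over those fits. Under CRS it ran from 0 to 2, and it was 2 when only the groups compared were fitted.

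Over all genes, the count for CRS in B6, 0, became 2 with a pseudocount of 0.1, 7 without the filter, 1 with a mean of at least 5 TPM and 2 without both doubted libraries, and ran from 0 to 2 when each library was left out. In BALB/c the count of 1 became 0 with a pseudocount of 0.1, without the filter, with a mean of at least 5 TPM and under median-of-ratios scaling, 2 with the striatal covariate and 3 without both libraries, with 0 to 2 over the fits that left out a library. For the difference between strains it was 0, and 2 without the filter, 1 with the striatal covariate, 2 without both libraries and 0 to 2 over those fits. The averaged CRS effect gave 0 of 8 genes in all 23 alternatives. The cause was not tested for any of these, and some of the fits also hold fewer samples or genes.

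The averaged strain difference changed sign for 4 genes that were not called. Per1 was 0.105 with the striatal covariate. Per3 was 0.036 under median-of-ratios scaling, 0.018 after rescaling, 0 without both libraries and -0.093 to 0.019 when each was left out. Cry2 was 0.061, 0.04 and 0.033 in the same 3 settings and -0.071 to 0.024 when each was left out. Nr1d1 was -0.111 with the striatal and -0.121 with the myelin covariate, -0.008 without both libraries and -0.055 to 0.095 when each was left out. Of 710 values of CRS effects and their difference, 709 moved by less than 1 residual SD of the gene, which is wider than many of these effects, and 29 changed sign, in 11 of 30 results. Over all alternatives Cry1 in B6 ran from -0.085 to 0.309, Dbp from -0.143 to 0.309 in B6 and from -0.186 to 0.115 in BALB/c, and the difference of the Per1 effects from -0.026 to 0.469. For Ciart, Nr1d1, Nr1d2 and Per2, no CRS effect and no difference of these effects changed sign.

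Sample numbers 9, 12 and 13 recur in both strains, which are different mice, and the deviations of same-numbered libraries correlated at -0.242, -0.029 and -0.036, so the numbers do not pair them. With the number as a replicate block the averaged strain difference still gave 2 genes, Cry1 at -0.465 and Dbp at -0.446, while over all genes the CRS count was 1 in B6 and 0 in BALB/c.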
